A study of Mus musculus with 9 samples.

Results

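The genes described here are targets and regulators of the tumour suppressor p53, measured by RNA-seq in mouse embryonic stem cells lacking the Hippo pathway effectors TAZ or YAP and TAZ. They were chosen by name: 33 genes were requested, without Cdkn1a and the BCL2 family, and 31 of them match a row of the deposited table of 38940 genes. Of these 31, 30 had a mean of at least 1 FPKM (fragments per kilobase of transcript, scaled for sequencing depth) over the 9 libraries and entered the tests among 11674 genes. Fas was the member below that level. Tigar and Pidd1 have no row under these names.

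There were 3 groups of 3 libraries, named after the sample titles. Taz KO cells are described as deleted for Taz with floxed alleles of Yap, Yap Taz double KO cells (double KO below) as deleted for both genes, and Control cells as carrying floxed alleles of both. The genotype field gives the double KO libraries the same genotype as Taz KO, so the groups follow titles and descriptions. Per the labels' protocols, all cells were grown on fibronectin in N2B27 medium with 4 ng/ml Lif and with inhibitors of MEK (0.4 µM PD0325901) and of GSK3 (3 µM CHIR99021). Cre-ERT2 was delivered by piggyBac transposition and induced with 500 nM 4-OHT, and the labels do not say whether Control cells received either. Nor do they say how many clones or separate cultures a group stands for, so the p-values reflect no more than the variation among these 9 libraries, and that variation may be technical.

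The deposited values correspond to 19.1 to 24.0 M reads per library. Yap1 was at 4.25 ± 0.334 FPKM in double KO, against 18.3 ± 0.346 in Taz KO and 18.4 ± 0.573 in Control (double KO against Control adjusted p = 3.75e-06; mean ± SD, n = 3, as throughout). Wwtr1, which encodes TAZ, was at 10.8 ± 1.58 FPKM in Taz KO, 13.9 ± 0.772 in double KO and 12.1 ± 0.847 in Control (double KO against Taz KO adjusted p = 0.0657, and 0.0191 with the replicate number as a block), and a sum over exons does not check a deletion of part of the gene. The summed level of 6 embryonic stem cell markers was 1229 to 1335 FPKM in Taz KO, 1111 to 1231 in double KO and 1288 to 1294 in Control cells. Of these 6 markers, 2 were called lower and 1 higher in double KO against Control, and 2 lower in double KO against Taz KO. Sox2 averaged 179 ± 8.51 FPKM in double KO, 226 ± 8.14 in Taz KO and 226 ± 14.2 in Control, Nanog 213 ± 9.50 in double KO, 279 ± 34.6 in Taz KO and 264 ± 3.63 in Control, and Zfp42 118 ± 14.9 in double KO, 98.6 ± 7.66 in Taz KO and 72.5 ± 13.3 in Control. Zfp42 lies on chromosome 8, whose 652 tested genes had a median log2 fold change against Control of 0.30 in double KO and 0.35 in Taz KO. The part of the chromosome in the Zfp42 result was not tested. Of 6 fibroblast markers, Dcn and Lum were listed at 0 in all libraries, and the sum of the list was 1.49 to 4.85 FPKM in Taz KO, 2.75 to 9.75 in double KO and 1.88 to 3.48 in Control libraries. Primitive endoderm markers (5 genes) summed to 1.67 to 3.26, 1.99 to 3.69 and 2.14 to 3.02 FPKM in Taz KO, double KO and Control, and trophectoderm markers (5 genes) to 13.7 to 20.0 in Taz KO, 16.2 to 32.3 in double KO and 14.5 to 16.0 in Control. The part of these markers in the results below was not tested. Libraries with the same replicate number deviated from their group means together, and number 2 stood furthest from the other two in many genes, so several results are also given without the 3 libraries numbered 2.

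p53 is a transcription factor that is held low by the ubiquitin ligase Mdm2 and its partner Mdm4, and Mdm2 is itself a p53 target, which closes a feedback loop. DNA damage and other stresses release p53, which then activates genes of cell cycle arrest, DNA repair, metabolism and cell death. Mouse embryonic stem cells are known to hold abundant p53. The mRNA of a target is set by many factors besides p53, and in these bulk libraries fewer cells expressing a gene and less RNA per cell cannot be told apart.

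Between double KO and Taz KO 7 of the 30 members tested rose (Plk2, Perp, Btg2, Plk3, Trp53inp1, Mdm2 and Tnfrsf10b), where 6.42% of all genes tested rose, and 1 fell (Sesn1), where 7.45% of all genes fell (13.9% of all genes called in either direction). The members' median log2 fold change was 0.18, beside -0.04 over all genes tested. Of the 30 members 22 had a positive value, as had 5185 of all 11674 genes tested. Without double KO 3 the members' median was 0.07, beside -0.04 over all genes. In double KO against Control 6 members rose (Plk3, Perp, Tnfrsf10b, Btg2, Pml and Xpc), where 12.4% of all genes rose, and 2 fell (Sesn1 and Aen), where 12.9% of all genes fell (25.3% in either direction). The median of the members was -0.05 there, beside -0.02 over all genes. In Taz KO against Control limma called 0 of 30, where it called 0.72% of all genes higher and 0.565% lower (1.28% in either direction). There 24 members had a negative value and 6 a positive one, with a median of -0.20 beside 0.01 over all genes. Over all genes tested 5659 values were negative and 6015 positive. In Taz KO an unadjusted p under 0.05 was reached by 10 members with lower and 2 with higher values. Over all genes tested it was reached by 561 with lower and 937 with higher values. Chromosomes 6, 8 and 14 contributed 158, 382 and 54 of these 937 genes, and 10, 5 and 8 of the 561. They also contributed 11, 53 and 2 of the 84 genes called higher after adjustment. Among the 26 members tested outside these chromosomes, 10 with lower and 1 with higher values reached that unadjusted p. With limma-voom on recovered reads 0 members were called as well. The comparisons with Control share the 3 Control libraries. The comparison of double KO with Taz KO takes no group mean from them, but its p-values use them in the shared estimate of the spread. All adjusted p-values are limma's, with Benjamini-Hochberg adjustment over all genes tested, and each log2 fold change is a difference of group means of log2(FPKM + 0.5).

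**Figure D1:**
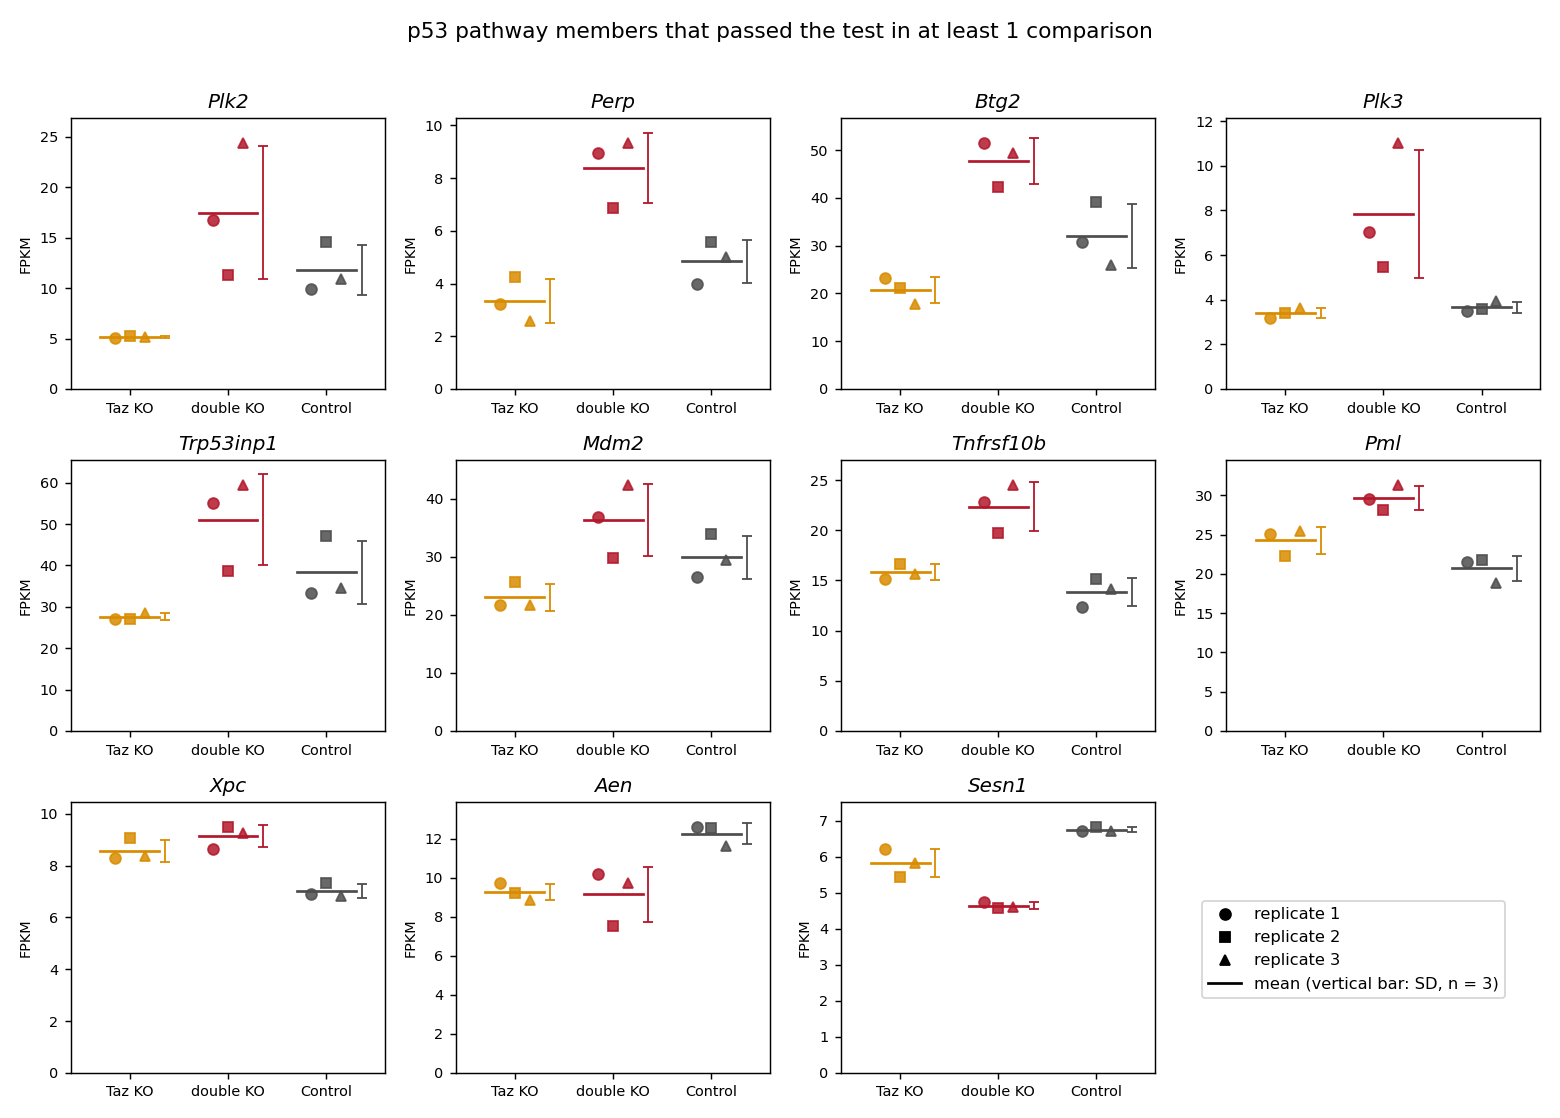
FPKM of the 11 members that passed the test in at least 1 comparison, by group (Taz KO, Yap Taz double KO, Control), with 1 point per library, a horizontal line at the mean and a vertical bar for the SD (n = 3), and the y axis starting at 0. For Plk2, Perp, Btg2, Plk3, Trp53inp1, Mdm2, Tnfrsf10b and Pml all 3 double KO libraries lie above all 3 Taz KO libraries. All of these except Pml are shown because they were called in that comparison or in others including it. The share of all genes separated in this way was not computed. For Plk2, Perp, Btg2, Plk3, Trp53inp1 and Mdm2 the mean of Control lies between the means of both knockout groups.

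Of the 8 members called between double KO and Taz KO, 3 were left when Taz KO 1 was omitted, and 4 when Taz KO 3, double KO 1 or double KO 3 was. Plk2, Perp and Btg2 passed in all 9 fits that left out 1 library, while Mdm2, Tnfrsf10b and Trp53inp1 lost the call in those 4 fits, Plk3 without Taz KO 1, and Sesn1 in those 4 and without double KO 2 or Control 1. Without Taz KO 1 the adjusted p-values of Mdm2, Tnfrsf10b, Trp53inp1, Plk3 and Sesn1 were 0.0914, 0.0851, 0.0682, 0.0636 and 0.116. The count of 8 in double KO against Control became 5 without Control 1, where Btg2, Perp and Aen had adjusted p = 0.0926, 0.0843 and 0.0889. Btg2 and Perp also lost that call when double KO 1, double KO 3 or Control 3 was omitted, and Aen when Control 2 was, while Plk3, Tnfrsf10b, Pml, Xpc and Sesn1 passed each time. Without the 3 libraries numbered 2 there were 11 higher and 4 lower members in double KO against Control, where 19.4% of all genes were called higher and 22.5% lower (41.9% in all), and the members added were Eda2r, Mdm2, Mdm4, Plk2 and Trp53inp1 (higher) and Dcxr and Rrm2b (lower). Between double KO and Taz KO there were 13 higher and 3 lower, where 14.5% and 22.1% of all genes were called (36.6% in all), and the members added were Ccng1, Fbxw7, Mdm4, Pml, Polk and Sesn2 (higher) and Gadd45a and Rrm2b (lower). With the replicate number as a block, 10 members were called in double KO against Control (6 higher and 4 lower). There 52.4% of all genes were called, 24.2% higher and 28.1% lower. In double KO against Taz KO 11 were called (9 higher and 2 lower), where 42.4% of all genes were, 16.8% higher and 25.6% lower. In both blocked fits the share of members called in either direction was below that of all genes. The share called higher in double KO against Taz KO was above that of all genes. When all libraries were scaled to equal totals, 8 members were higher and 0 lower in double KO against Taz KO, in place of 7 and 1. The share of all genes called was not computed for this fit or for the fits without 1 library. Whether that share moved with the count of members was not tested.

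**Figure D2:**
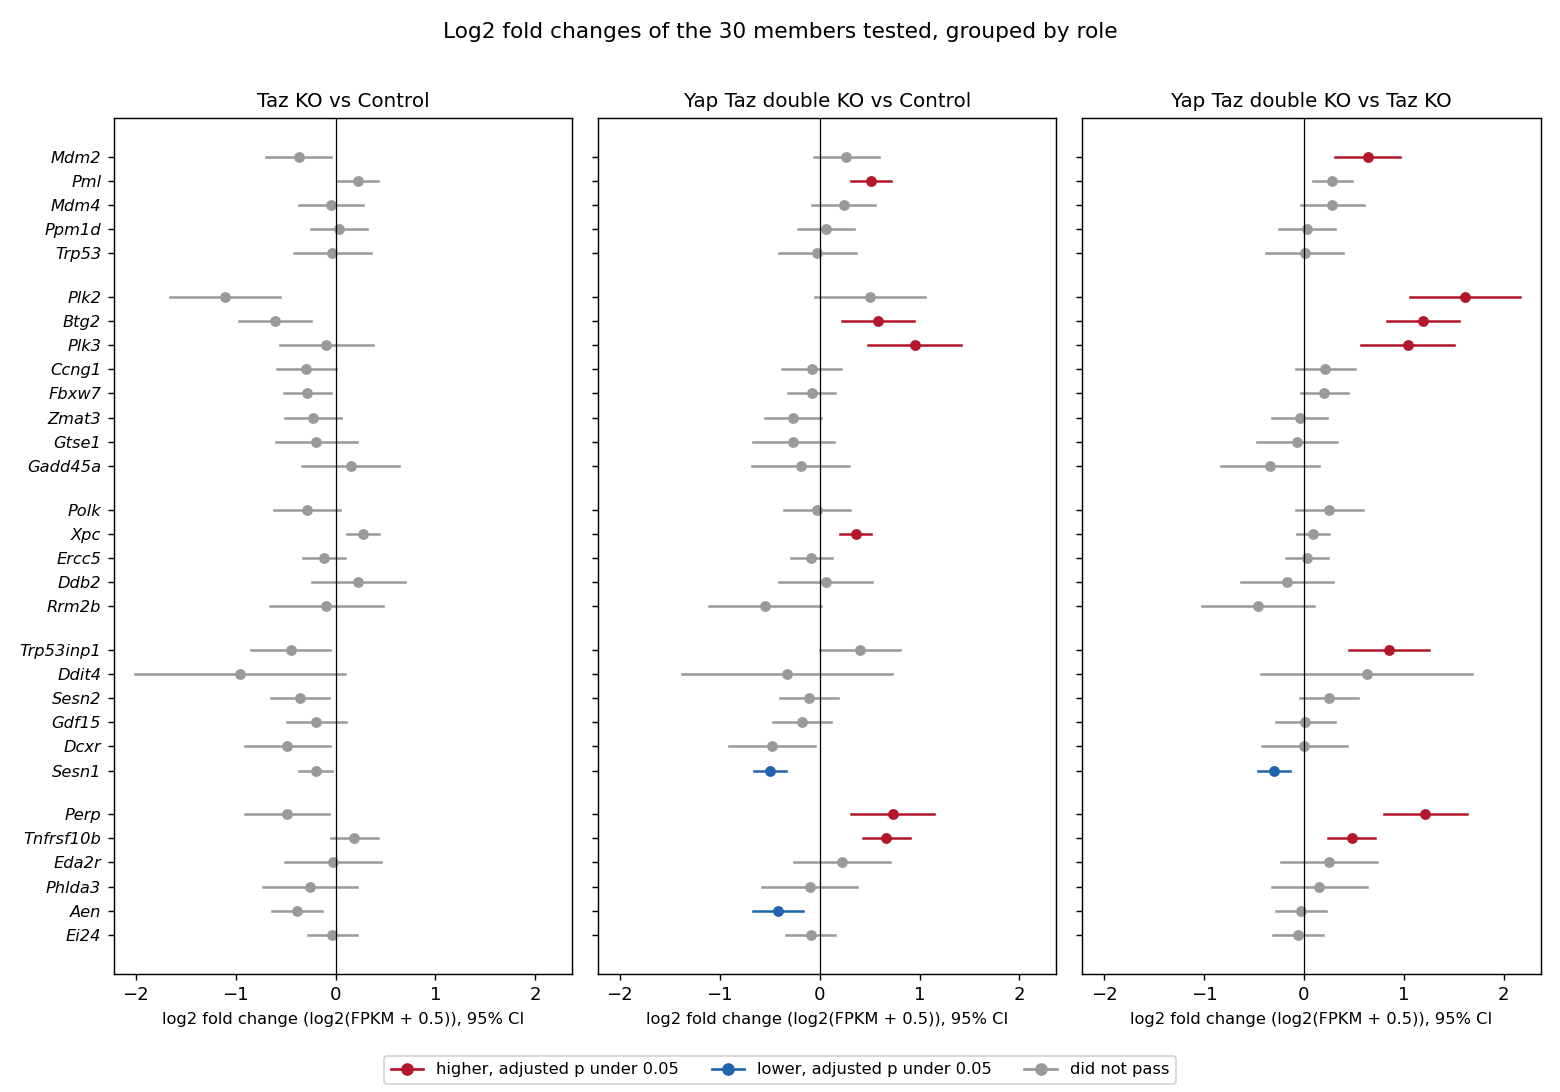
Log2 fold changes (x axis, on the log2(FPKM + 0.5) scale, with 95% confidence intervals of limma) of the 30 members tested in the 3 comparisons, ordered down the page by role: p53 and its regulators, cell cycle and growth, DNA repair, metabolism and stress, death receptors and cell death. Red marks the 7 members that rose in double KO against Taz KO and the 6 in double KO against Control, blue the members that fell, and grey those that did not pass, which are all 30 in Taz KO against Control.

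Trp53, the gene of p53 itself, was at 80.1, 56.9 and 78.8 FPKM in double KO libraries 1, 2 and 3, at 78.3, 56.6 and 79.2 in Taz KO and at 76.3, 64.9 and 76.2 in Control. Library 2 was the lowest of its group each time, and the groups overlapped. Its log2 fold change was 0.01 for double KO against Taz KO (95% interval -0.38 to 0.40, adjusted p = 0.977), -0.02 for double KO against Control (adjusted p = 0.934) and -0.03 for Taz KO against Control (adjusted p = 0.983). Mdm2, the ubiquitin ligase of the feedback loop, was at 36.8, 29.8 and 42.4 FPKM in double KO, at 21.6, 25.7 and 21.7 in Taz KO and at 26.6, 33.9 and 29.4 in Control. The double KO libraries lay above all Taz KO libraries, and the Control libraries also lay above them. Mdm2 rose in double KO against Taz KO by 0.64 on the log2 scale (SE 0.14, adjusted p = 0.0216). Its difference was 0.27 for double KO against Control (adjusted p = 0.196, and 0.00571 without the libraries numbered 2) and -0.37 for Taz KO against Control (adjusted p = 0.297).

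Mdm4, the relative of Mdm2 that binds and restrains p53, was at 64.4, 54.3 and 75.5 FPKM in double KO, at 49.8, 59.7 and 49.0 in Taz KO and at 49.1, 61.4 and 53.1 in Control. Library 2 was the lowest of the double KO group and the highest of both others, and the groups overlapped. The log2 fold change against Taz KO was 0.28 (adjusted p = 0.208, and 0.00686 without the libraries numbered 2). Ppm1d, whose phosphatase Wip1 dampens damage signalling to p53, was at 10.3, 9.69 and 11.6 FPKM in double KO, at 10.7, 9.03 and 11.1 in Taz KO and at 9.41, 8.96 and 11.8 in Control. Its 3 log2 fold changes lay between 0.03 and 0.07, and the groups overlapped (adjusted p = 0.724 to 0.977). Pml, the scaffold of PML nuclear bodies, was at 29.5, 28.2 and 31.3 FPKM in double KO, at 25.2, 22.3 and 25.4 in Taz KO and at 21.5, 21.8 and 18.8 in Control. Its 3 groups did not overlap, and it rose in double KO against Control by 0.51 on the log2 scale (SE 0.09, adjusted p = 0.00401). Against Taz KO the log2 fold change was 0.29 (adjusted p = 0.0616, and 0.0199 with the replicate number as a block).

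Among the 8 members of cell cycle and growth control, 3 rose in double KO against Taz KO. Plk2, a polo-like kinase induced by stress, was at 16.8, 11.3 and 24.4 FPKM in double KO, at 5.05, 5.23 and 5.13 in Taz KO and at 9.88, 14.6 and 11 in Control. The Taz KO libraries were the lowest 3 of the 9, while double KO and Control overlapped. The mean in double KO was 3.41 times that in Taz KO, and Plk2 rose by 1.61 on the log2 scale (SE 0.24, adjusted p = 0.00531). In Taz KO against Control the log2 fold change of Plk2 was -1.11 (SE 0.24, adjusted p = 0.0701, or 0.0224 in the fit with the replicate block), and in double KO against Control it was 0.50 (adjusted p = 0.159, and 0.00648 without the libraries numbered 2). Btg2, an antiproliferative factor that binds the mRNA deadenylase complex, was at 51.5, 42.2 and 49.5 FPKM in double KO, at 23.3, 21.0 and 17.8 in Taz KO and at 30.8, 39.2 and 26.0 in Control. All 3 groups were separate, with double KO highest and Taz KO lowest. Its log2 fold change was 1.19 for double KO against Taz KO (SE 0.16, adjusted p = 0.0037), 0.58 for double KO against Control (adjusted p = 0.0285) and -0.61 for Taz KO against Control (adjusted p = 0.121, and 0.0281 with the replicate block).

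Plk3, another polo-like kinase, was at 7.04, 5.44 and 11 FPKM in double KO, at 3.17, 3.42 and 3.63 in Taz KO and at 3.48, 3.57 and 3.93 in Control. Only the double KO libraries stood apart. Plk3 rose by 1.04 on the log2 scale against Taz KO (SE 0.20, adjusted p = 0.0141) and by 0.95 against Control (SE 0.20, adjusted p = 0.011), while Taz KO against Control was at -0.09 (adjusted p = 0.954). Ccng1, which encodes cyclin G1 and had the highest mean of the set in Control, was at 82.6 ± 12.3 FPKM in double KO, 70.6 ± 3.07 in Taz KO and 87.0 ± 11.9 in Control, with adjusted p of 0.301, 0.694 and 0.394 for double KO against Taz KO, double KO against Control and Taz KO against Control. Fbxw7, a substrate receptor of a ubiquitin ligase for cyclin E and Myc, was at 6.98 ± 0.948 FPKM in double KO, 5.96 ± 0.398 in Taz KO and 7.36 ± 0.328 in Control. With the replicate block its adjusted p was 0.0438 for double KO against Taz KO and 0.036 for Taz KO against Control, beside 0.221 and 0.271 without it. Gtse1, a G2 and S phase protein that binds p53, was at 58.3 ± 14.6, 60.2 ± 7.53 and 68.5 ± 2.28 FPKM in double KO, Taz KO and Control. Zmat3, an RNA-binding zinc finger protein, was at 11.5 ± 1.55 FPKM in double KO, 11.9 ± 1.52 in Taz KO and 13.9 ± 0.973 in Control. Gadd45a, a growth arrest and DNA damage protein, was at 4.96 ± 1.11 FPKM in double KO, 6.48 ± 1.76 in Taz KO and 5.66 ± 0.653 in Control, and none of these 3 genes passed in any comparison with all libraries (Gadd45a was lower in double KO against Taz KO without the libraries numbered 2, adjusted p = 0.0178).

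The promoters of Plk2, Btg2 and Mdm2 are shown because these genes rose between Taz KO and double KO and each window holds a motif named below. The windows run from 250 bases before to 50 bases after the start of the gene, from RefSeq on GRCm38.p6, 5′ to 3′ on the gene's strand, at chr13:110394794-110395093 (Plk2, plus strand), chr1:134079106-134079405 (Btg2, minus strand) and chr10:117710709-117711008 (Mdm2, minus strand). Capitals mark the cAMP response element TGACGTCA in Plk2 and Btg2 and the p53 consensus decamer, of which a p53 response element holds a pair, in Mdm2.
Plk2 promoter: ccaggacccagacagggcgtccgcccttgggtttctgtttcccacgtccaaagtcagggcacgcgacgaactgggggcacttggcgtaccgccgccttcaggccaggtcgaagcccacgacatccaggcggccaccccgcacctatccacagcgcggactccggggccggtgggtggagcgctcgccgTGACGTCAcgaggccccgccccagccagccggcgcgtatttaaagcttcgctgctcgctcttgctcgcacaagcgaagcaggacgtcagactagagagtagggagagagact
Btg2 promoter: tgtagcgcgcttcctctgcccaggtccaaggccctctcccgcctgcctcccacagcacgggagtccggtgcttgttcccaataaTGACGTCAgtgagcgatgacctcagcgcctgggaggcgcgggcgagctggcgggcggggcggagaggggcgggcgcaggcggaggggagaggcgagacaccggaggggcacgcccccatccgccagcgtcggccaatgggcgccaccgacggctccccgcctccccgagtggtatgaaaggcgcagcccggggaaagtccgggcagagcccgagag
Mdm2 promoter: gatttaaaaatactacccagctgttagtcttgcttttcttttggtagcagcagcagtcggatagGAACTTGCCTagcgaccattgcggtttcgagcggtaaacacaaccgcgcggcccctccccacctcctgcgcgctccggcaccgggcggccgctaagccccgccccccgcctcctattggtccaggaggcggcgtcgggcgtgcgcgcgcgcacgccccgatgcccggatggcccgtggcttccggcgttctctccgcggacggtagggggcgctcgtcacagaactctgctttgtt
The cAMP response element lies 62 to 55 bases before the start of Plk2 and 166 to 159 before that of Btg2, and the p53 decamer 186 to 177 before that of Mdm2. Windows were found for 24 of the 31 members, 32 windows in all. The table has none for Trp53inp1, Ddb2, Tnfrsf10b, Zmat3, Rrm2b, Xpc and Perp. On both strands, the p53 decamer matched in 12 of the 32 windows (37.5%), those of Aen, Ccng1, Ei24, Gadd45a, Gtse1, Mdm2, Pml, Polk, Ppm1d, Sesn1 and Trp53, and in 8.36% of all 32851 promoter windows. TGACGTCA, searched for after these sequences were seen, matched in the windows of Btg2, Plk2 and Ppm1d and in 1.79% of all windows. GGAATG, bound by the TEAD partners of YAP and TAZ, matched in those of Eda2r, Gdf15 and Phlda3 and in 14.7% of all windows, and the AP-1 motif TGANTCA in those of Fas and Mdm4 and in 7.81% of all windows. The Plk3 window held none of the 4 motifs, and no motif overlaps another in the windows printed.

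**Figure D3:**
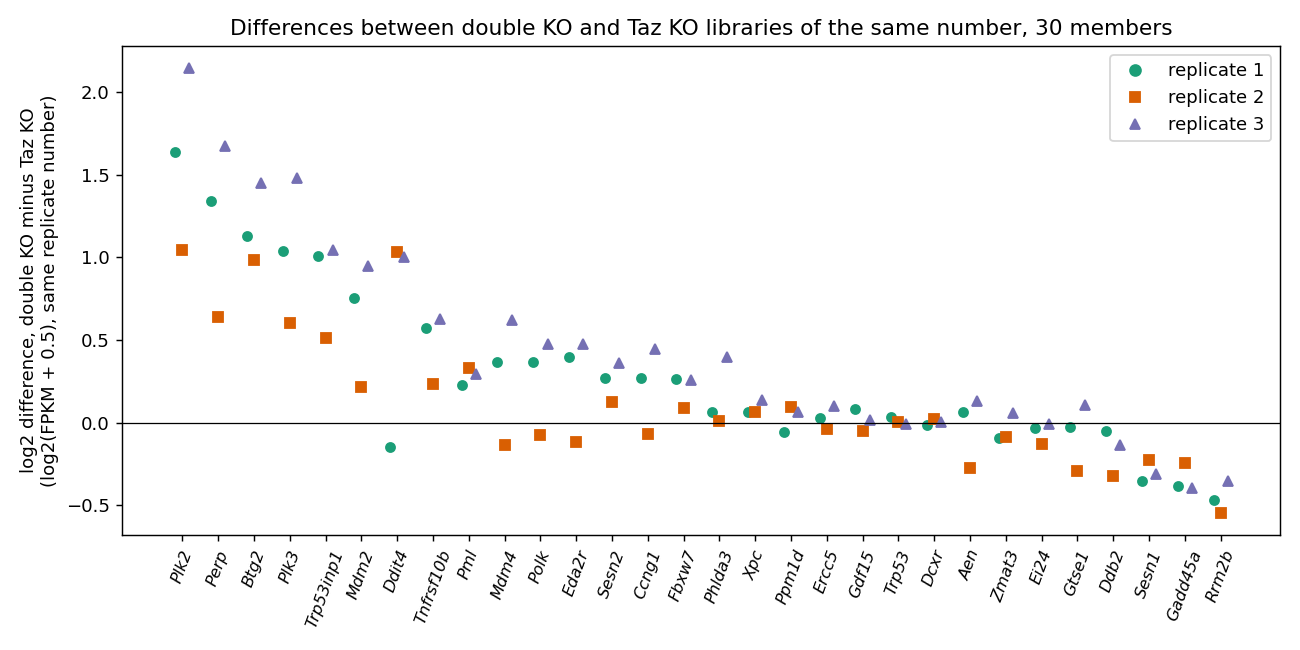
Log2 difference of double KO minus Taz KO (y axis, on the log2(FPKM + 0.5) scale) between libraries of the same replicate number, for the 30 members tested, ordered by their mean difference. All 3 points lie above 0 for Plk2, Perp, Btg2, Plk3, Trp53inp1, Mdm2 and Tnfrsf10b, and replicate 2 is the smallest of the 3 for each of these. For these genes all double KO libraries lie above all Taz KO libraries, so the sign is given by that. All 3 points also lie above 0 for Pml, Fbxw7, Sesn2, Xpc and Phlda3, which did not pass this comparison with all libraries and no block. The share of all genes with 3 points above 0 was not computed.

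In the libraries of the same number, Plk2 differed between double KO and Taz KO by 1.64, 1.05 and 2.15 on the log2 scale for numbers 1, 2 and 3, and Mdm2 by 0.75, 0.21 and 0.95. Perp differed by 1.34, 0.64 and 1.68. Number 2 showed the smallest difference in each case. Over the 30 members, library 2 was the highest of its group in all 3 groups for Rrm2b, Ddb2, Xpc and Dcxr and the lowest in all 3 for Trp53, Ppm1d and Fbxw7. These are 4 and 3 of the 30 members tested, where 19.6% and 31.8% of all genes tested had library 2 highest and lowest in every group.

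Of the 5 members that act in DNA repair or nucleotide supply, Xpc rose in double KO against Control. Xpc recognises DNA lesions for nucleotide excision repair and was at 8.65, 9.48 and 9.27 FPKM in double KO, at 8.27, 9.06 and 8.37 in Taz KO and at 6.90, 7.31 and 6.83 in Control. Both knockout groups lay above all Control libraries and overlapped each other. The log2 fold change was 0.36 for double KO against Control (SE 0.07, adjusted p = 0.00754), 0.27 for Taz KO against Control (adjusted p = 0.116, or 0.014 in the blocked fit) and 0.09 for double KO against Taz KO (adjusted p = 0.437). Xpc lies on chromosome 6, and the 510 tested genes of that chromosome had a median log2 fold change of 0.19 in double KO against Control, 0.22 in Taz KO against Control and -0.02 in double KO against Taz KO. The part of the chromosome in the Xpc result was not tested.

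Rrm2b, a ribonucleotide reductase subunit induced by p53, was at 2.64, 4.07 and 2.51 FPKM in double KO, at 3.86, 6.19 and 3.35 in Taz KO and at 4.14, 6.01 and 3.98 in Control. Library 2 was the highest of each group, and within each number the double KO library was the lowest. Without the replicate block its log2 fold change of -0.55 against Control and -0.46 against Taz KO did not pass (adjusted p = 0.135 and 0.251), and with the block both did (adjusted p = 0.000611 and 0.00221). Ddb2, which also recognises ultraviolet lesions, was at 5.87 ± 1.19 FPKM in double KO, 6.77 ± 2.08 in Taz KO and 5.58 ± 0.786 in Control. Polk, a translesion DNA polymerase, was at 8.01 ± 0.637, 6.65 ± 0.913 and 8.27 ± 1.73 FPKM in double KO, Taz KO and Control, and the repair endonuclease gene Ercc5 at 8.77 ± 0.266, 8.57 ± 0.272 and 9.36 ± 1.23. With all libraries these 3 genes passed in no comparison, with or without the block (Polk was higher in double KO against Taz KO without the libraries numbered 2, adjusted p = 0.00903).

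Among the 6 members of metabolism and stress, Trp53inp1 rose and Sesn1 fell in double KO against Taz KO. Trp53inp1, a stress protein that promotes p53 activity and autophagy, was at 55.1, 38.7 and 59.4 FPKM in double KO, at 27.2, 27.1 and 28.6 in Taz KO and at 33.4, 47.0 and 34.4 in Control. The Taz KO libraries were the 3 lowest, and library 2 was the lowest of double KO and the highest of Control. The log2 fold change was 0.85 for double KO against Taz KO (SE 0.18, adjusted p = 0.0168) and 0.41 for double KO against Control (adjusted p = 0.12, and 0.000689 without the libraries numbered 2). Sesn1, a sestrin that restrains the kinase complex mTORC1, was at 4.75, 4.57 and 4.60 FPKM in double KO, at 6.21, 5.42 and 5.82 in Taz KO and at 6.71, 6.82 and 6.72 in Control. The 3 groups were separate and double KO was the lowest. Sesn1 fell by 0.50 on the log2 scale in double KO against Control (SE 0.07, adjusted p = 0.00184) and by 0.30 against Taz KO (SE 0.07, adjusted p = 0.0278), and was at -0.20 in Taz KO against Control (adjusted p = 0.254).

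The related sestrin gene Sesn2 was at 46.6 ± 7.72 FPKM in double KO, 38.8 ± 3.80 in Taz KO and 49.7 ± 2.34 in Control, with adjusted p = 0.265 for Taz KO against Control, and 0.0485 with the replicate block. Ddit4, another inhibitor of mTORC1, had the widest spread of the set: 40.7, 101 and 40.4 FPKM in double KO, 45.0, 49.2 and 19.9 in Taz KO and 92.2, 81.9 and 43.7 in Control. No 2 groups were separate, and the log2 fold change of -0.96 for Taz KO against Control had an interval of -2.01 to 0.10 (adjusted p = 0.457, and 0.0465 with the block). Dcxr, a carbonyl reductase gene, was at 9.20 ± 0.799 FPKM in double KO, 9.16 ± 0.682 in Taz KO and 13.4 ± 4.48 in Control, where library 2 stood at 18.6. With the block Dcxr passed against Control in both knockout groups (adjusted p = 0.0149 for double KO and 0.048 for Taz KO), and without it in neither (adjusted p = 0.0954 and 0.31). Gdf15, a secreted stress cytokine, was at 5.20 ± 0.562, 5.12 ± 0.334 and 5.97 ± 1.06 FPKM in double KO, Taz KO and Control, and passed in no comparison.

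Of the 7 members that encode death receptors or act in cell death, 6 were tested. Perp, a membrane protein of desmosomes that also acts in p53-dependent apoptosis, was at 8.94, 6.85 and 9.33 FPKM in double KO, at 3.23, 4.23 and 2.58 in Taz KO and at 3.97, 5.58 and 5.01 in Control. The double KO libraries were the 3 highest, while Taz KO and Control overlapped. Perp rose by 1.22 on the log2 scale against Taz KO (SE 0.18, adjusted p = 0.00543) and by 0.73 against Control (SE 0.18, adjusted p = 0.0215). Tnfrsf10b, the mouse receptor for the death ligand TRAIL, was at 22.8, 19.7 and 24.5 FPKM in double KO, at 15.1, 16.7 and 15.7 in Taz KO and at 12.4, 15.2 and 14.1 in Control. Here too the double KO libraries were the 3 highest. It rose by 0.66 against Control (SE 0.10, adjusted p = 0.0027) and by 0.48 against Taz KO (SE 0.10, adjusted p = 0.0196). Tnfrsf10b lies on chromosome 14, whose 391 tested genes had medians of 0.11 in double KO against Control, 0.11 in Taz KO against Control and -0.0022 in double KO against Taz KO. The part of the chromosome in the Tnfrsf10b result was not tested.

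Aen, an exonuclease that acts in apoptosis, was at 10.2, 7.51 and 9.73 FPKM in double KO, at 9.71, 9.21 and 8.86 in Taz KO and at 12.6, 12.6 and 11.6 in Control. The Control libraries were the 3 highest. Aen fell by 0.41 on the log2 scale in double KO against Control (SE 0.11, adjusted p = 0.025) and was at -0.39 in Taz KO against Control (adjusted p = 0.148, and 0.0346 with the block). Between double KO and Taz KO the value was -0.03 (interval -0.28 to 0.22, adjusted p = 0.886). Eda2r, a TNF receptor family member on the X chromosome, was at 7.35 ± 2.35, 5.90 ± 0.690 and 6.01 ± 0.765 FPKM in double KO, Taz KO and Control. Phlda3, an inhibitor of Akt, was at 35.6 ± 9.40 FPKM in double KO, 31.6 ± 6.37 in Taz KO and 37.3 ± 2.77 in Control. Ei24, a protein of the endoplasmic reticulum, was at 49.3 ± 6.10 FPKM in double KO, 51.3 ± 5.19 in Taz KO and 52.4 ± 2.71 in Control. None of these 3 passed in any comparison with all libraries. Fas, the receptor of Fas ligand, was at 0.0604 to 0.225 FPKM, which is 2 to 9 reads a library, and a difference was not detectable at this depth.

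Taz KO against Control is the comparison in which the replicate block changed most. With the block 7 members were called lower (Plk2, Btg2, Fbxw7, Sesn2, Ddit4, Dcxr and Aen), where 4.05% of all genes were, and 1 higher (Xpc), where 7.78% of all genes were (11.8% in all). Without the block the count was 0. Of all genes called with the block, chromosomes 6, 8 and 14 contributed 160, 433 and 41 of the 908 higher ones. Their share of the 473 lower ones was 9, 5 and 11 genes. Leaving out double KO 2 or double KO 3, neither of which enters the 2 group means compared, gave 2 calls (Plk2 and Aen) and 1 call (Plk2). The share of all genes called was not computed for these fits. Without the libraries numbered 2, Plk2 alone passed (adjusted p = 0.0393), where 1.2% of all genes were called lower and 2.42% higher (3.62% in all). Set beside double KO against Control, Plk2, Btg2, Perp, Mdm2 and Trp53inp1 had log2 fold changes of -1.11, -0.61, -0.49, -0.37 and -0.45 in Taz KO and of 0.50, 0.58, 0.73, 0.27 and 0.41 in double KO. Plk3, Mdm4 and Eda2r were at -0.09, -0.04 and -0.03 in Taz KO and at 0.95, 0.24 and 0.23 in double KO. Gadd45a went the other way, at 0.15 in Taz KO and -0.19 in double KO. It lies on chromosome 6, whose tested genes had medians of 0.22 in Taz KO and 0.19 in double KO. The part of the chromosome in the Gadd45a values was not tested. The remaining members tested had the same sign in both, and these signs were not set against those of all genes. Sesn1, Aen and Dcxr were below Control in both, at -0.20, -0.39 and -0.48 in Taz KO and -0.50, -0.41 and -0.48 in double KO, and Pml, Xpc and Tnfrsf10b were above it in both, at 0.23, 0.27 and 0.19 in Taz KO and 0.51, 0.36 and 0.66 in double KO. Of these values Btg2, Perp, Plk3, Sesn1, Aen, Pml, Xpc and Tnfrsf10b passed in double KO, and none passed in Taz KO.

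**Figure D4:**
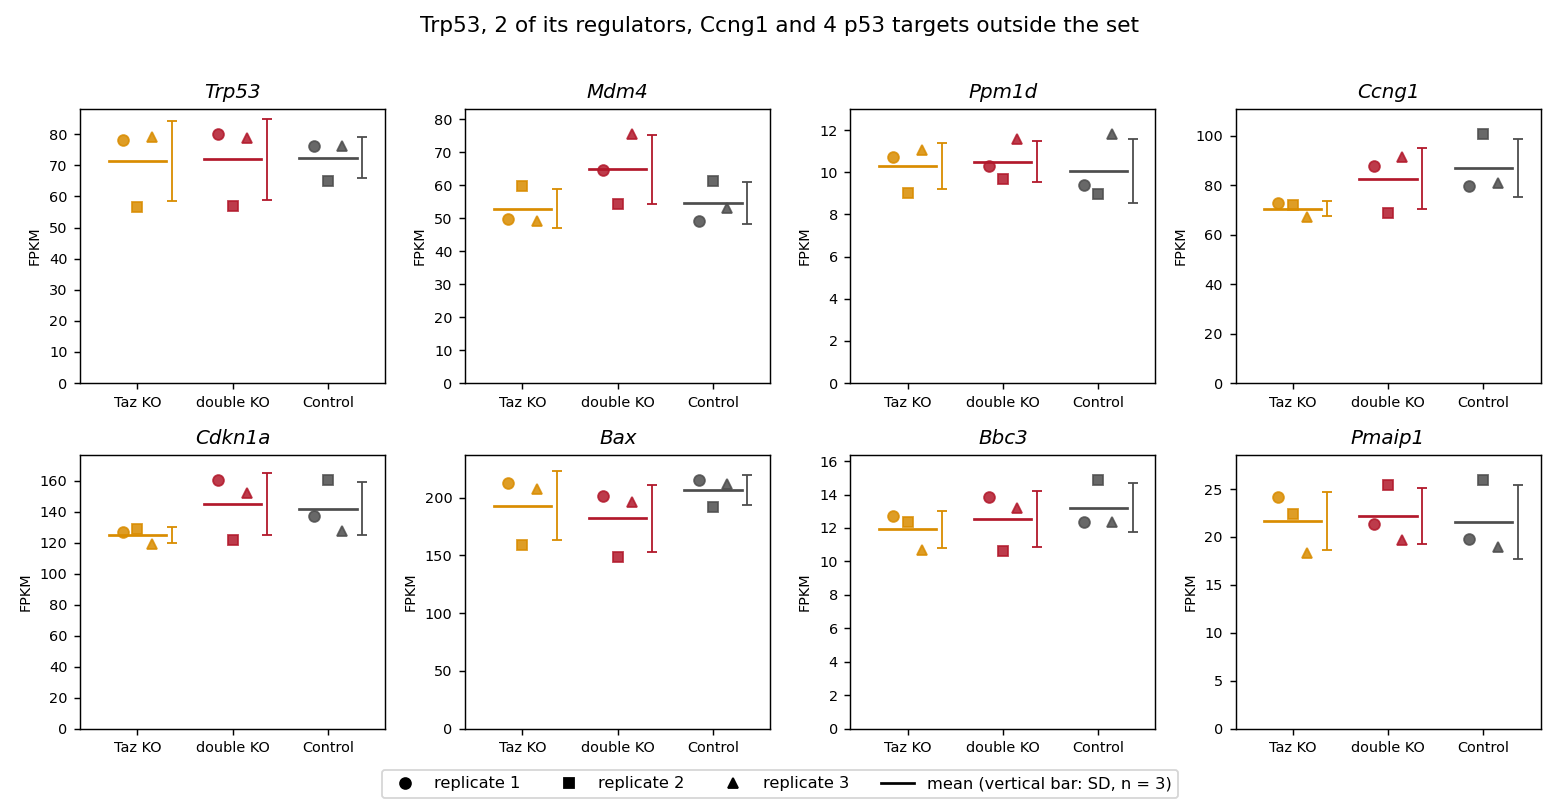
FPKM of Trp53, Mdm4, Ppm1d and Ccng1 and of Cdkn1a, Bax, Bbc3 and Pmaip1, which are p53 targets outside the set, by group, with 1 point per library, a line at the mean and a vertical bar for the SD (n = 3), and the y axis starting at 0. None of the 8 genes passed in any comparison, and library 2 of double KO is the lowest of its group for all of them except Pmaip1.

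Other genes of the pathway were listed for comparison: 30 genes, of which 26 were tested. Between double KO and Taz KO 4 rose and 3 fell, where 13.9% of all genes were called, and in double KO against Control 3 rose and 3 fell, where 25.3% of all genes were. In Taz KO against Control limma and limma-voom called 0, with 2 lower and 2 higher at an unadjusted p under 0.05, while with the replicate block 2 were higher and 1 lower, where 11.8% of all genes were called, Sfn (adjusted p = 0.00748) and Siva1 (adjusted p = 0.0144) among them. Sfn, which encodes 14-3-3 sigma, was at 167 ± 22.4, 101 ± 10.8 and 82.7 ± 9.69 FPKM in double KO, Taz KO and Control, and rose on the log2 scale by 0.72 against Taz KO (adjusted p = 0.0117) and by 1.01 against Control (adjusted p = 0.00142). Siva1, a pro-apoptotic gene, was at 52.7 ± 4.36 FPKM in double KO, 82.6 ± 7.16 in Taz KO and 97.7 ± 6.09 in Control, and fell in double KO by 0.64 against Taz KO (adjusted p = 0.00512) and by 0.89 against Control (adjusted p = 0.000549). Trp73, which encodes the p53 relative p73, rose by 0.65 against Taz KO (adjusted p = 0.0165), and was at 0.34 against Control (adjusted p = 0.092, and 0.0353 with the block). Glutaminase gene Gls2 fell by 0.48 against Taz KO (adjusted p = 0.0197), the acetyltransferase gene Crebbp rose by 0.44 against Control (adjusted p = 0.024), and Rpl11, a ribosomal protein that can bind Mdm2, fell by 0.39 against Control (adjusted p = 0.0123, and 0.209 with quantile normalization). Further calls, named after their values were seen, were Gls2 against Control and Crebbp and Rpl11 against Taz KO, in the same directions. Sfn and Siva1 passed in all 9 fits without 1 library in both comparisons of double KO. Trp73 and Gls2 lost the call against Taz KO when Taz KO 1, Taz KO 3 or double KO 3 was omitted (adjusted p up to 0.0648 and 0.0856), Crebbp lost that against Control when double KO 1, double KO 3, Control 1 or Control 2 was (up to 0.0776), and Rpl11 when Control 1 was (0.0584).

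The best known p53 targets outside the set did not pass. Cdkn1a, the CDK inhibitor p21, was at 160, 122 and 152 FPKM in double KO, at 127, 129 and 119 in Taz KO and at 137, 161 and 128 in Control (adjusted p = 0.3 for double KO against Taz KO, and 0.00722 without the libraries numbered 2). Of the pro-apoptotic BCL2 family genes, Bax was at 182 ± 28.9, 193 ± 29.7 and 207 ± 12.7 FPKM in double KO, Taz KO and Control. Bbc3 (PUMA) was at 12.5 ± 1.69 FPKM in double KO, 11.9 ± 1.09 in Taz KO and 13.2 ± 1.46 in Control, and Pmaip1 (NOXA) at 22.1 ± 2.94 in double KO, 21.6 ± 2.99 in Taz KO and 21.6 ± 3.85 in Control. For double KO against Taz KO their log2 fold changes had intervals of -0.42 to 0.25 for Bax, -0.21 to 0.34 for Bbc3 and -0.31 to 0.38 for Pmaip1. Bax passed in double KO against Control with the replicate block (log2 fold change -0.19, adjusted p = 0.0347, and 0.364 without it). The table also has the rows 9630033F20Rik and Lrdd, which RefSeq gives as older symbols of Tigar and Pidd1. The first, an enzyme that lowers glycolytic flux, was at 28.1 ± 5.99, 33.9 ± 5.90 and 31.1 ± 1.37 FPKM in double KO, Taz KO and Control, and the other, the PIDD death domain protein, at 10.1 ± 1.71 FPKM in double KO, 10.2 ± 0.779 in Taz KO and 10.02 ± 0.328 in Control. Neither row was counted with the members, and neither passed (9630033F20Rik had adjusted p = 0.0463 for double KO against Taz KO with the block, and 0.323 without it).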

How the data were processed

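The authors deposited 1 table of FPKM values, with 1 column for each of the 9 libraries. Per the labels' protocols, 1 µg of total RNA was poly(A)-selected and made into directional libraries, sequenced for 75 cycles. Tools listed in the submitters' processing notes are DESeq2, HTSeq 0.6.1 and TopHat2 2.1.1, with the build mm10 and no role for each. The strand setting, annotation release and filters are not stated, so reads of overlapping or antisense genes may be split between them.

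Within a gene, all deposited FPKM values were whole multiples of the worth of 1 read (tolerance 0.001) for 24621 of 24621 genes above 0. The worth of 1 read varied between libraries inversely to size factors computed by the median of ratios, so the columns were already on a common scale. No replicate pair agreed within sampling noise (chi-square of recovered reads 5.71 to 52.4 per gene), and all 9 libraries were kept.

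The test was limma's (version 3.58.1, R 4.3.3), on log2 of the deposited FPKM plus 0.5, with group means over 9 libraries, a variance trend, two-sided tests and an adjusted p under 0.05 as the threshold, after a filter of 1 FPKM on the mean. The procedure was tested on simulated data, with noise independent between libraries and planted changes larger than that of any member. That setting holds no deviation shared by libraries of the same number, so it does not cover the pairing described next. Libraries with the same number in the titles correlated in their deviations from group means at 0.192 to 0.711 in 9 pairs, and with different numbers at -0.688 to 0.394 in 18 pairs. The numbers were therefore taken to pair the libraries, a pairing that comes from the values, and a fit blocked on that number is printed where it changes a call. Alternatives varied the pseudocount, filter, scaling, model, libraries and genes. Gene positions and promoters are RefSeq's on GRCm38.p6.

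The members and lists were chosen with earlier results of these data known. Per-library values are given for members called in any comparison, for Trp53, Mdm2, Mdm4 and Ppm1d, and for others where 1 library decides a value; of the other pathway genes, the 5 largest calls per comparison and Cdkn1a, Bax, Bbc3 and Pmaip1 are named. Of the other pathway genes called, 1 is counted but not reported here.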

Additional observations from a re-analysis of the deposited data

How the results depend on the processing

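The numbers of members called were 0 in Taz KO against Control, 8 in double KO against Control and 8 in double KO against Taz KO. The fit with the replicate block gave 8, 10 and 11, where it called 11.8%, 52.4% and 42.4% of all genes. Fits on only the 2 groups compared gave 1 (Plk2) in Taz KO against Control and 5 in double KO against Taz KO, where Mdm2, Plk3 and Sesn1 lost the call. Without the 3 libraries numbered 2, chosen after seeing the data, the counts were 1, 15 and 16. Fits without 1 library gave 0 to 2, 5 to 11 and 3 to 10. The share of all genes called was computed only for the main fit, the block and the fit without the libraries numbered 2. Pseudocounts of 0.1 and 1, quantile normalization, equal totals, limma-voom, no filter, a filter at 5 FPKM and leaving out chromosomes 6, 8, 14 and Y (26 members left) kept each count within 1.5 times. Calls of members lost among these were Btg2 in double KO against Control without a filter, and Sesn1 in double KO against Taz KO without a filter and with equal totals. No call of a member, or of a named gene from the comparison list, turned its direction under any alternative. Yap1, Wwtr1, the markers, 9630033F20Rik and Lrdd were left out of that check. Except for the calls given beside each gene, the block changed no call of a member. Fas, at 2 to 9 reads a library, is limited by depth.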
